A study of Mus musculus with 30 samples.

Results

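The lactate response described here is the change in expression that 24 h of culture with 20 mM sodium L-lactate made on average in a pair of macrophage subsets from the same kind of tumour. It was measured in 20 of the series' 30 RNA sequencing libraries, those of cultured cells, and was fitted in 1 model with 4 groups of 5 libraries, as the mean of the lactate effect in MHC-IIhi cells and the lactate effect in MHC-IIlo cells. All groups were tumour-associated macrophages from wild-type C57BL/6 mice carrying subcutaneous 3LL-R tumours, a Lewis lung carcinoma line, and were sorted by high or low surface MHC class II. Each cultured library came from 250000 cells kept for 24 h, MHC-IIhi or MHC-IIlo, without lactate or with it. The other 10 libraries, 5 per subset, came from 30000 freshly sorted cells lysed at once and entered no test here. The labels name no medium matched for sodium or osmolarity, so effects of the added salt and of lactate cannot be told apart. They give no mouse behind each library, so the p-values measure the spread between these libraries.

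Lactate is the end product of glycolysis and builds up in tumours, where glycolytic tumour cells release it together with protons. Cells move it across the membrane with monocarboxylate transporters of the Slc16a family and turn it back into pyruvate with lactate dehydrogenase. Macrophages in tumours take up lactate, and it is known there for shifting their metabolism and for inducing genes such as Arg1 and Vegfa. Sodium lactate adds a neutral salt rather than an acid, and a rise in salt outside the cell is known to induce carriers of compatible solutes through the transcription factor NFAT5.

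Values are in CPM, read counts relative to library size, with TMM factors set over the 20 libraries, and they are listed in the order of the numbers in the table's header, which are 3 to 7 for MHC-IIhi without lactate and 1, 3, 4, 5 and 6 for the other 3 groups. Totals ran from 16965012 to 31481548 assigned reads. Csf1r, the receptor for the growth factor of macrophages, lay between 161 and 1556 CPM in the 20 libraries. H2-Ab1, a chain of the MHC class II protein used to sort the subsets, lay between 777 and 1530.2 CPM in the 10 MHC-IIhi libraries and between 7.59 and 72.1 CPM in the 10 MHC-IIlo libraries, so the subsets did not overlap. One library stood apart, MHC-IIlo with lactate number 5, called library 5 here. Its TMM factor was 1.28 against 0.905 to 1.07 in the other 19, and its 50 most abundant genes took 16.2% of reads against 22.1% to 25.5% in the other 9 MHC-IIlo libraries. Results whose call ended without it are given with and without it.

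Of 13593 genes tested, 450 (3.31%) passed an adjusted p of 0.05 for the shared lactate effect by the quasi-likelihood test of edgeR. Lactate raised 279 of them (2.05%) and lowered 171 (1.26%). The median change was 0.55 on the log2 scale among those raised and -0.65 among those lowered, against 0.0046 over all genes. Changes of at least 1 on the log2 scale, a doubling or halving, were made by 46 of the genes that rose and 50 of those that fell. All 450 had the same sign in both subsets, and 300 of them also had an unadjusted p under 0.05 in each subset alone, 194 raised and 106 lowered. The shared effect is the mean of these same subset effects, so both traits are partly set by the selection and give no separate support. Over all genes an unadjusted p under 0.05 was reached by 19.1% for the shared effect, 9.87% in MHC-IIhi and 17.5% in MHC-IIlo. Most of the 450 were not called in a single subset, and 271 passed neither test. MHC-IIhi alone had 34 calls (0.25%), 28 raised (0.206%) and 6 lowered (0.0441%), and MHC-IIlo 202 (1.49%), 123 raised (0.905%) and 79 lowered (0.581%). Without MHC-IIlo with lactate number 5, 476 genes passed (3.47%), 310 raised (2.26%) and 166 lowered (1.21%), and 374 of the 450 were among them. The count was 259 without MHC-IIhi without lactate number 6, 290 and 293 without MHC-IIlo without lactate numbers 3 and 5, 259 without MHC-IIhi with lactate number 6, and 803 without MHC-IIhi with lactate number 1.

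**Figure D1:**
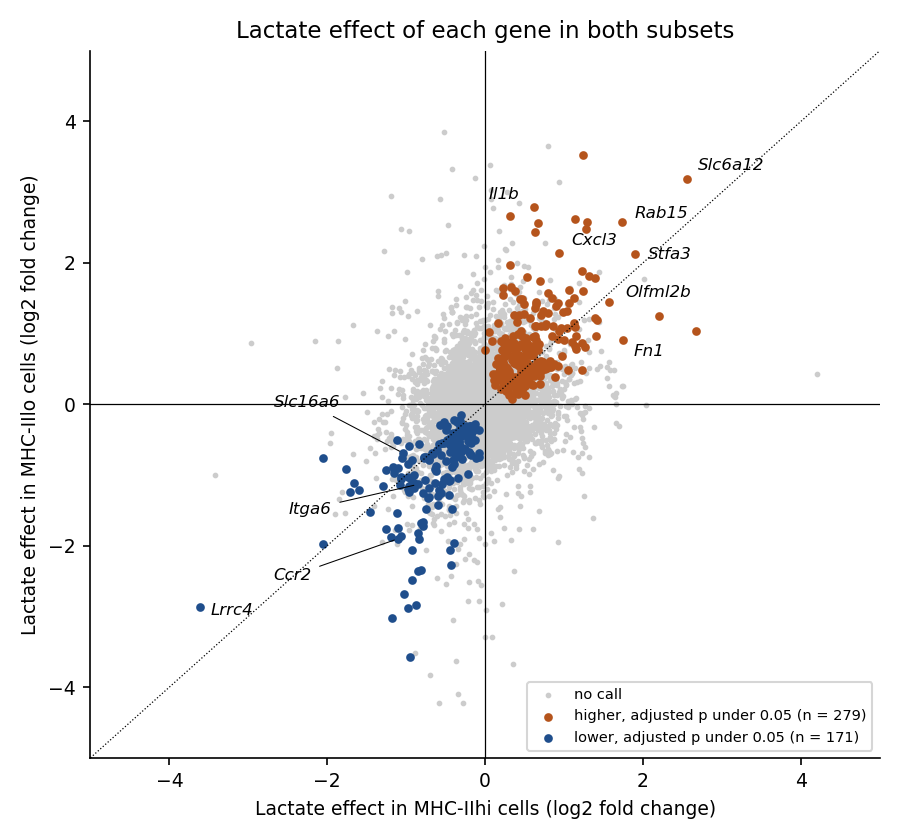
Log2 fold change with lactate in MHC-IIhi cells (horizontal) and in MHC-IIlo cells (vertical) for 13591 of the 13593 genes tested (2 lie beyond the axes); the dotted line marks equal effects. The 279 genes called higher lie at the upper right and the 171 called lower at the lower left, and Slc6a12 and Lrrc4 lie farthest out near the line of equal effects.

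Groups with and without lactate did not overlap in either subset for 31 of the 279 raised genes and 9 of the 171 lowered ones. Over all genes tested, 32 (0.235%) were separated upward in both subsets and 9 (0.0662%) downward. In MHC-IIhi alone 198 genes (1.46%) were separated upward and 79 (0.581%) downward, and in MHC-IIlo 392 (2.88%) and 357 (2.63%). Those raised include a betaine carrier, a matrix protein, an integrin, a pair of sphingolipid enzymes, a chemokine, the endotoxin co-receptor CD14 and antioxidant enzymes. No gene passed the test for a different effect in the subsets (edgeR, adjusted p; 1018 genes, 7.49%, had an unadjusted p under 0.05), while DESeq2 and limma voom each called 2. Most of the called genes still had the larger estimate in MHC-IIlo, 180 of the 279 raised (64.5%) and 134 of the 171 lowered (78.4%). The same held for 57.7% of all genes, over which the SD of the estimates was 0.454 in MHC-IIlo and 0.336 in MHC-IIhi, so larger estimates in MHC-IIlo were not limited to called genes. Over 13593 genes the estimates in the subsets correlated with Pearson's r of 0.312 and Spearman's rho of 0.265. This is a description across genes, which are not independent and share their libraries.

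The largest change of a called gene that rose was that of Slc6a12, the betaine and GABA carrier by which cells take up betaine as a compatible solute (chromosome 6, 121343076 to 121365775, + strand, GRCm38). Its level in MHC-IIhi cells was 3.67, 4.37, 2.99, 9.52 and 7.89 CPM without lactate and 39.6, 44, 15.1, 23.6 and 45.4 with it. In MHC-IIlo cells Slc6a12 was at 1.17, 0.765, 0.792, 0.2902 and 1.95 CPM without lactate and 9.87, 5.14, 7.91, 10.7 and 12.4 with it. Every lactate library was above every library without lactate of its subset, and MHC-IIlo with lactate number 5 lay among the others. The shared log2 fold change was 2.88 ± 0.29 (SE, adjusted p = 1.72e-05), with 2.56 in MHC-IIhi and 3.19 in MHC-IIlo. Fresh cells held 0 to 0.491 CPM in MHC-IIhi, on a scale set over all 30 libraries.

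All gene lists were chosen with earlier results of these data known, so their counts and shares are descriptions and no test. Over all genes, 2.05% were raised and 1.26% lowered. In the list of osmolyte carriers and NFAT5 targets, 4 of 14 genes tested rose and none fell, and the list's median was 0.39. Beside Slc6a12 these were genes of the heat shock family, Hspa1b at 0.87 ± 0.12 and Hspa4l at 0.71 ± 0.13, and the aldose reductase relative Akr1b8 at 0.56 ± 0.12. Hspa1b went from 5.75, 4.56, 5.66, 5.12 and 5.25 CPM to 8.74, 8.504, 8.85, 6.43 and 8.22 in MHC-IIhi and from 2.76, 4.896, 3.73, 4.52 and 2.82 to 6.05, 7.55, 8.67, 10.3 and 7.88 in MHC-IIlo, without overlap in either. It has a near-identical copy, Hspa1a, whose estimate was 0.43 ± 0.13 (adjusted p = 0.0676), so the share of reads each received is uncertain. Other classic members missed the threshold: the inositol carrier Slc5a3 was at 0.56 ± 0.18 (adjusted p = 0.0896), the aldose reductase gene Akr1b3 at 0.27 ± 0.12 (0.226), and Nfat5 itself at 0.35 ± 0.12 (0.116). The taurine carrier Slc6a6 had an estimate of -0.02 ± 0.13 (adjusted p = 0.9599), and its sign changed between analyses. The listed genes Ranbp3l and Slc14a2 had no reads in any of the 20 libraries.

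Genes of the extracellular matrix and its proteases formed the second group, 8 raised and 1 lowered of 29 tested (median 0.16), against 2.05% raised and 1.26% lowered of all genes. Olfml2b, a secreted olfactomedin-like protein (chromosome 1, 170644532 to 170682789, + strand), had the smallest p of all genes tested. Its CPM values in MHC-IIhi were 48.1, 61.2, 68.3, 53.7 and 43.7 without lactate and 187, 210.2, 102, 166 and 151 with it. MHC-IIlo libraries held 16.03, 15.8, 12.98, 13.3 and 13.6 CPM of Olfml2b without lactate and 43.5, 52.7, 30.3, 29.6 and 40.3 with it. Both subsets separated fully and by similar amounts, 1.57 and 1.45 on the log2 scale, with a shared change of 1.51 ± 0.13 (adjusted p = 1.90e-06).

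Fn1, which encodes fibronectin, rose by 1.33 ± 0.23 (adjusted p = 0.00331). In MHC-IIhi cells Fn1 went from 103, 136, 126, 92.1 and 66.6 CPM to 474, 431, 184, 346 and 326, without overlap. MHC-IIlo cells held 33.5, 29.2, 19.2, 22.7 and 21.9 CPM of Fn1 without lactate and 108, 30.1, 31.3, 27.8 and 41.7 with it, where 1 library, number 1, was far above the other 4, and the groups overlapped. These levels were a small part of those in fresh cells, whose lowest Fn1 values were 14631 CPM in MHC-IIhi and 6019 CPM in MHC-IIlo.

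Collagenase and elastase genes rose as well. Mmp13, a collagenase, changed by 0.91 ± 0.16, from a mean of 1803 ± 446 CPM to 3252 ± 1073 (SD, n = 5) in MHC-IIhi and from 1427 ± 259.7 to 2779 ± 637 in MHC-IIlo. Mmp12, the macrophage elastase, changed by 0.96 ± 0.21, and the libraries held 2027 to 6335 CPM of it without lactate and 3417 to 13458 with it, which overlapped. The call for Mmp12 was lost in all 3 fits on FPKM values, where the estimate was as low as 0.38. Mmp3, a stromelysin, rose by 1.17 ± 0.25, with 0.53 in MHC-IIhi, where the groups overlapped, and 1.80 in MHC-IIlo. Mmp8, a collagenase best known from neutrophils, rose by 0.86 ± 0.18, with 1.23 in MHC-IIhi and 0.48 in MHC-IIlo. In MHC-IIlo, library 5 held 384.8 CPM of Mmp8, below all libraries without lactate (lowest 668 CPM). The urokinase receptor Plaur rose by 0.49 ± 0.12 on average, with 0.087 in MHC-IIhi and 0.89 in MHC-IIlo. Serpinb2, an inhibitor of urokinase that is outside the list, rose by 1.19 ± 0.26. Plaur was lost when any of 5 single libraries was left out (highest adjusted p = 0.0710) and in all 3 fits on FPKM values. Tgfbi, a matrix adaptor protein, was the member that fell, with values given among the lowered genes. The integrin Itga1, a collagen receptor subunit that is also outside the list, went from 24.1, 27.03, 36.6, 22.5 and 17.7 CPM to 58.2, 68.3, 36.8, 66.97 and 53.8 in MHC-IIhi and from 7.62, 6.92, 8.26, 9.54 and 6.92 to 17.4, 16.5, 11.7, 15.97 and 15.2 in MHC-IIlo. Its groups did not overlap in either subset, although in MHC-IIhi the gap between the highest library without lactate and the lowest with it was only from 36.6 to 36.8 CPM. The shared change of Itga1 was 1.06 ± 0.13 (adjusted p = 1.40e-04).

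**Figure D2:**
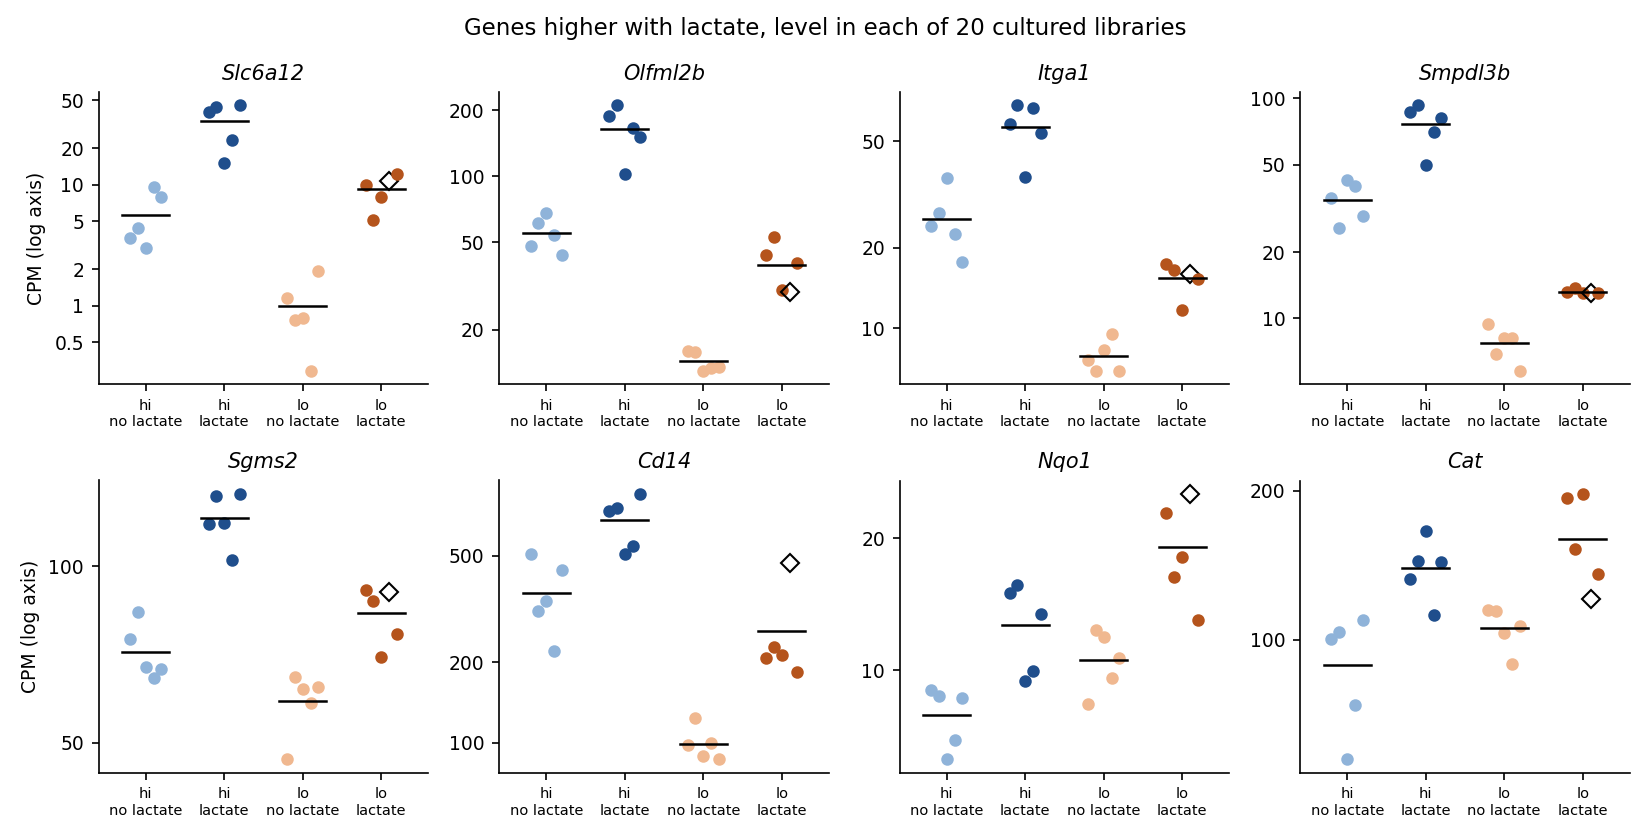
Level of 8 raised genes in CPM (log axis) in each of the 20 cultured libraries, by subset (hi, lo) and culture; points are libraries, bars are group means, and the open diamond is MHC-IIlo with lactate number 5. In each panel every lactate library lies above every library without lactate of its subset, as for Slc6a12 with 15.1 to 45.4 CPM against 2.99 to 9.52 CPM in MHC-IIhi.

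Sphingolipid enzymes gave 2 raised and no lowered genes of 29 tested (median 0.022), against 2.05% raised and 1.26% lowered of all genes. Both raised members were separated in both subsets. Smpdl3b, a membrane-anchored relative of acid sphingomyelinase that is known to restrain toll-like receptor signals, held 35.2, 25.6, 42.4, 39.8 and 29.1 CPM without lactate and 86.6, 93.1, 50.02, 70.3 and 81.2 with it in MHC-IIhi. For MHC-IIlo the values of Smpdl3b were 9.41, 6.88, 8.15, 8.17 and 5.75 and 13.2, 13.8, 13.1, 13.01 and 13.05 CPM, and the 5 lactate libraries were almost level. Sgms2, a sphingomyelin synthase of the plasma membrane, went from 75.3, 83.7, 67.4, 64.5 and 66.9 to 118, 132, 119, 103 and 133 CPM in MHC-IIhi and from 46.8, 64.7, 61.9, 58.5 and 62.3 to 91.2, 87.4, 70.1, 90.4 and 76.6 in MHC-IIlo. The shared changes were 0.97 ± 0.11 and 0.63 ± 0.08, both with an adjusted p of 1.40e-04.

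Inflammatory mediators, secreted proteins together with enzymes that make nitric oxide and prostaglandins, were the list with the most raised genes, 9 of 32 tested (28.1%) with none lowered, against 2.05% of all genes raised. That share is a description, as the lists were chosen with earlier results of these data known. The list's median was 0.58, with 0.14 in MHC-IIhi and 0.79 in MHC-IIlo. A neighbouring cluster of CXC chemokines on chromosome 5 made up 4 of the 9: Cxcl5 (90759360 to 90761624), Cxcl3 (90786103 to 90789600), Cxcl1 (90891241 to 90893115) and Cxcl2 (90903871 to 90905938), all on the + strand. These chemokines bind CXCR2 and draw neutrophils. Because 3 of them have promoters in the RefSeq table for GRCm38.p6, which covered 15 of 21 genes looked up, and because they rose together, their promoters are shown 5′ to 3′. They run from 250 bases before the RefSeq start to 50 bases after it. That start lies 4 (Cxcl1), 28 (Cxcl2) and 2 (Cxcl3) bases from the gene start given above. Capitals mark matches of GGGANNNNCC, a form of the site read by NF-kB, on either strand, where overlapping matches run together. Of the 15 promoters, 4 held the motif looked for. These were 3 of 4 searched for the NF-kB site, with none in that of Il1b, 1 of 4 searched for the antioxidant response element TGACNNNGC (Gclm), and 0 of 7 searched for TonE, the site of NFAT5.
Cxcl1, chr5:90890995-90891294, + strand: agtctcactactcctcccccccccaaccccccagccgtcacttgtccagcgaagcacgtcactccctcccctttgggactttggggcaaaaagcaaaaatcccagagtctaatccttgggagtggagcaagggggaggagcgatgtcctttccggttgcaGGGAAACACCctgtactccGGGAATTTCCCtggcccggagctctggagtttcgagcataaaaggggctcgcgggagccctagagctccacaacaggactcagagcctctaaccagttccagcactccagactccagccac
Cxcl2, chr5:90903649-90903948, + strand: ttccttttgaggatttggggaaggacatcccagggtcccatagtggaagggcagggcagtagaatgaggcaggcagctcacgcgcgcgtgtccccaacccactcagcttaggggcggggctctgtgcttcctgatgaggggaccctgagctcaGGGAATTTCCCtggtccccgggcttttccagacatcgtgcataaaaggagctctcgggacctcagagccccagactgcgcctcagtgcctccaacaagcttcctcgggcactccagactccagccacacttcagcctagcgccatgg
Cxcl3, chr5:90785851-90786150, + strand: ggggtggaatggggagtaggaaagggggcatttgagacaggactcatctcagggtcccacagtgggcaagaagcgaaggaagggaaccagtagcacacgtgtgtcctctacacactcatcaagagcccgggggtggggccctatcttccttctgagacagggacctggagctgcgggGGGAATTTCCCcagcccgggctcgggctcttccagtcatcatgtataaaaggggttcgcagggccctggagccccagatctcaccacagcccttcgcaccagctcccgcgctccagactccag
Each holds the stretch GGGAATTTCCC, which matches on both strands, at -71 to -61 in Cxcl1, -97 to -87 in Cxcl2 and -73 to -63 in Cxcl3. Positions are counted in bases from the RefSeq start, and Cxcl1 holds a further match at -90. Over 9340 tested genes with a promoter in the table, 26.6% held the NF-kB motif, and the share was 29.9% among genes called higher (60 of 201) and 31.1% among those called lower (37 of 119). The antioxidant response element was in 15.1% of all, 11.4% of those called higher and 18.5% of those called lower. TonE was in 3.45%, 5.47% and 1.68%. The counts of 3 of 4, 1 of 4 and 0 of 7 are too small to be set apart from these shares. The 3 promoters with the NF-kB site belong to neighbouring chemokine genes that share the same stretch, so they are not independent. A match says only that these letters are present.

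Cxcl3 was at 947, 819, 668, 622 and 1118 CPM in MHC-IIhi cells without lactate and at 1131, 1517, 1511, 1625 and 2212 with it. MHC-IIlo cells held 154, 81.9, 74.2, 106 and 68.4 CPM of Cxcl3 without lactate and 375, 325, 236, 857 and 337 with it, and neither subset overlapped. The shared change was 1.54 ± 0.21 (adjusted p = 4.85e-04), and 1.33 ± 0.16 without MHC-IIlo with lactate number 5.

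For Cxcl2 the MHC-IIhi values were 325, 305, 220.4, 207 and 496 CPM without lactate and 262, 386, 481, 524 and 822 with it, which overlapped. Its MHC-IIlo values were 48.6, 22.8, 37.2, 39.6 and 27.7 and 76.5, 88.8, 137, 610.4 and 125 CPM, which did not, although 610.4 CPM in library 5 stood far above the other 4. The shared change of 1.62 ± 0.33 (adjusted p = 0.00953) became 1.14 ± 0.21 (adjusted p = 0.00391) without that library. Cxcl1 showed the same layout, with 166, 169, 136, 124 and 224 and 94.1, 181, 204, 228 and 314 CPM in MHC-IIhi and 22.5, 11.1, 16.9, 17.7 and 11.6 and 30.1, 47.7, 78.8, 292 and 55.6 CPM in MHC-IIlo. Its shared change was 1.49 ± 0.32 with library 5 and 1.03 ± 0.20 without it (adjusted p = 0.0142 and 0.00719). The difference of the Cxcl1 effects in the subsets had an unadjusted p of 0.00147 and an adjusted p of 0.63. Cxcl5 rose by 1.31 ± 0.24, from means of 11.5 ± 2.704 to 25.1 ± 6.52 CPM (SD, n = 5) in MHC-IIhi and from 4.34 ± 3.12 to 12.3 ± 4.29 in MHC-IIlo.

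Il1b, which encodes interleukin 1 beta, depended on that library. Without lactate its MHC-IIlo levels were 8.103, 6.73, 2.79, 4.93 and 2.48 CPM and with lactate 16.6, 9.97, 8.57, 129 and 9.303, so 4 of the 5 lactate libraries held 8.57 to 16.6 CPM and number 5 held 129. In MHC-IIhi the values were 414, 174, 238, 138 and 369 CPM without lactate and 329, 299, 318, 374 and 726 with it, which overlapped. The shared change was 1.7 ± 0.45 (adjusted p = 0.0401) with library 5 and 0.88 ± 0.25 (adjusted p = 0.0543) without it, where it no longer passed, and leaving out any of 11 single libraries ended the call. Csf3, the granulocyte growth factor, went from 2.39 ± 0.62 (adjusted p = 0.0363) to 1.21 ± 0.39 (adjusted p = 0.0796) in the same way. Ptges, which makes prostaglandin E2, rose by 0.65 ± 0.18, with 0.16 in MHC-IIhi and 1.14 in MHC-IIlo, and also lost its call without library 5 (adjusted p = 0.0595). Ptgs2, the step before it, had an estimate of 1.64 ± 0.49 and missed the threshold (adjusted p = 0.0684). Without library 5 the list held 7 raised genes of 32, against 2.26% of all genes.

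Nos2, the inducible nitric oxide synthase, rose by 1.03 ± 0.24 (adjusted p = 0.0194). Its values were 1620.4, 1774, 1091, 1212 and 1990.3 CPM without lactate and 1394, 1999, 2497, 2455 and 3632 with it in MHC-IIhi, and 140.3, 277, 255, 192 and 157 and 146, 549.9, 817, 727 and 483 CPM in MHC-IIlo. Groups overlapped in both subsets, in MHC-IIlo through library 1 at 146 CPM, and the call was lost in all 3 fits on FPKM values. Lif, a cytokine of the interleukin 6 family, rose by 0.94 ± 0.20 with 0.23 in MHC-IIhi and 1.65 in MHC-IIlo.

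**Figure D3:**
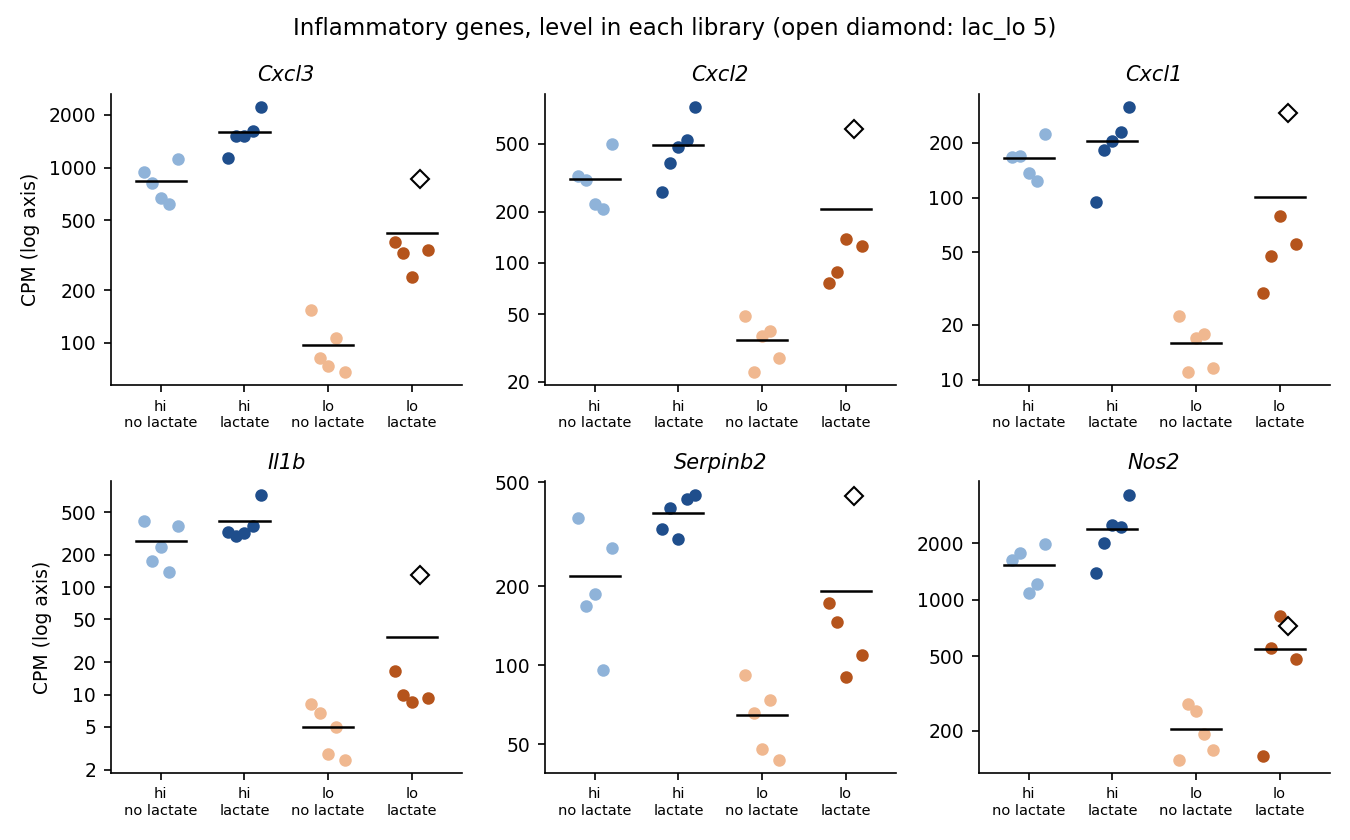
Level of 6 raised inflammatory genes in CPM (log axis) in each of the 20 cultured libraries; points are libraries, bars are group means, and the open diamond is MHC-IIlo with lactate number 5. That library held the highest MHC-IIlo value for 5 of the 6 genes, with 129 CPM of Il1b against 8.57 to 16.6 CPM in the other 4 lactate libraries, while Cxcl3 separated in both subsets.

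Among toll-like receptors and regulators of NF-kB, 2 genes rose and 1 fell of 30 tested (median -0.062). Over all genes, 2.05% were raised and 1.26% lowered. Cd14, the co-receptor that hands endotoxin to TLR4, was at 509, 309.6, 339, 219.6 and 441 CPM without lactate and 738, 756, 509.9, 546 and 854 with it in MHC-IIhi, and at 97.5, 124, 88.7, 99.2 and 86.4 and 208, 229, 212, 471 and 184 CPM in MHC-IIlo. It was separated in both subsets, if barely in MHC-IIhi (highest 509 without lactate, lowest 509.9 with it), and rose by 1.15 ± 0.17 (adjusted p = 9.90e-04), or 0.99 ± 0.13 without library 5. Tlr2, the receptor for bacterial lipopeptides, rose by 0.65 ± 0.12 (adjusted p = 0.00365). Tlr9, the endosomal receptor for DNA, had an estimate of -0.95 ± 0.25 and an adjusted p of 0.0373, which did not pass without library 5 (0.0543) or in 12 other fits that each left out 1 library.

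The NRF2 list, genes of glutathione and redox defence, had 7 raised and no lowered of 29 tested (24.1%), against 2.05% of all genes raised. Its median was 0.19, with 24 positive estimates, against 51.1% positive over all genes. Without library 5, 9 of the 29 rose, against 2.26% of all genes. Nqo1, a quinone reductase and standard NRF2 target, went from 8.99, 8.74, 6.25, 6.93 and 8.65 to 15.03, 15.6, 9.44, 9.94 and 13.4 CPM in MHC-IIhi and from 8.38, 12.4, 11.9, 9.58 and 10.6 to 22.9, 16.3, 18.1, 25.3 and 13.01 in MHC-IIlo. Cat, the peroxide-removing enzyme catalase, went from 100.4, 104, 57.4, 73.8 and 109.8 to 133, 144, 166, 113 and 143 CPM in MHC-IIhi and from 115, 115, 103, 89.5 and 107 to 193, 153, 197, 121 and 136 in MHC-IIlo. Both were separated in both subsets, with shared changes of 0.77 ± 0.13 and 0.62 ± 0.12. Slc7a11, the cystine carrier that feeds glutathione synthesis, rose by 0.98 ± 0.22, with 0.47 in MHC-IIhi and 1.49 in MHC-IIlo. The shared change of Slc7a11 was 0.77 ± 0.17 without library 5, which held 229.7 CPM against 62.2 to 106 in the other 4. Glutathione reductase Gsr rose by 0.41 ± 0.08, the glutathione transferase Gsta4 by 0.99 ± 0.20, the peroxiredoxin Prdx6 by 0.51 ± 0.13 and Gclm, a subunit of the first enzyme of glutathione synthesis, by 0.48 ± 0.12. Gclm lost its call without any of 4 single libraries (MHC-IIhi without lactate 6, MHC-IIhi with lactate 6, MHC-IIlo without lactate 3 and 5) and Prdx6 without any of 13. Hmox1, heme oxygenase, had an estimate of 0.50 ± 0.17 and did not pass (adjusted p = 0.102).

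Estimates for glycolytic genes lay almost all above 0. Of 20 tested 3 rose and none fell, against 2.05% of all genes raised. The median was 0.37 with 19 positive estimates, and 16 had an unadjusted p under 0.05 in the upward direction, as had 10% of all genes. Hk1, a hexokinase, went from 202, 194, 157, 159 and 241 CPM to 214, 253, 292, 235 and 331 in MHC-IIhi and from 128, 123, 104, 114 and 104 to 159, 165, 171, 150.1 and 146 in MHC-IIlo, a change of 0.47 ± 0.09 (adjusted p = 0.00568). Aldoc, an aldolase, rose by 1.04 ± 0.21. Pfkl, a phosphofructokinase subunit, rose by 0.35 ± 0.09, with 0.14 in MHC-IIhi and 0.57 in MHC-IIlo. The Pfkl call was lost without MHC-IIhi with lactate 6, MHC-IIhi without lactate 6 or MHC-IIlo without lactate 6. Estimates that missed the threshold were 0.38 ± 0.11 for the pyruvate kinase gene Pkm (adjusted p = 0.0515), 0.42 ± 0.13 for Pgk1 (0.08201) and 0.36 ± 0.11 for Ldha, the A chain of lactate dehydrogenase (0.0734). Without library 5, 7 of the 20 rose, against 2.26% of all genes.

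In the hypoxia list, 6 genes rose and 1 fell of 29 tested, with a median of 0.39 and 27 positive estimates. Over all genes, 2.05% were raised, 1.26% were lowered and 51.1% had a positive estimate. Ier3, a stress-induced survival gene, rose by 0.95 ± 0.16, with 0.49 in MHC-IIhi and 1.42 in MHC-IIlo. Ankrd37, a standard HIF target, rose by 0.93 ± 0.20. Ddit4, a brake on mTORC1 that ATF4 also induces, rose by 0.99 ± 0.24, with 0.32 in MHC-IIhi and 1.66 in MHC-IIlo. Its highest MHC-IIlo value, 28.1 CPM, was in library 5. The Ddit4 call was lost without any of 4 single libraries (MHC-IIhi with lactate 6, MHC-IIhi without lactate 6, MHC-IIlo without lactate 3 and 6), in an additive model and in all 3 fits on FPKM values. Vegfa, the vascular growth factor, was at 160.4, 179, 117, 96.4 and 178 CPM without lactate and 102, 154, 197, 208 and 312 with it in MHC-IIhi, which overlapped widely, and at 44.2, 49.8, 56.8, 49.5 and 33 and 64.03, 79.3, 99.2, 141 and 80.1 CPM in MHC-IIlo, which did not. Its change was 0.70 ± 0.18 (adjusted p = 0.0342) and, without library 5, 0.60 ± 0.17 (adjusted p = 0.0516), and it lost the call without any of 9 other single libraries. Vhl, which marks HIF for degradation, was at 0.25 ± 0.07, and its call too ended without library 5 (adjusted p = 0.0556). Epas1, the gene for HIF-2 alpha, fell by 0.95 (SE 0.23, adjusted p = 0.0239) and lost the call without MHC-IIhi without lactate number 6. Without library 5 the hypoxia list had 3 raised and 1 lowered, against 2.26% and 1.21% of all genes.

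Lactate and pyruvate handling gave 3 raised and 1 lowered of 21 tested (median 0.057), against 2.05% raised and 1.26% lowered of all genes. Slc16a6, a member of the monocarboxylate transporter family known to carry ketone bodies, fell by 0.86 (SE 0.11, adjusted p = 1.95e-04). It was at 42.6, 58.6, 46.7, 38.1 and 44.7 CPM without lactate and 24.7, 16.9, 24.3, 26.6 and 19.9 with it in MHC-IIhi, without overlap, and at 75.5, 87.3, 71.3, 82.2 and 48.3 and 42.8, 46.1, 45.1, 53.3 and 38.3 CPM in MHC-IIlo, where 1 library without lactate at 48.3 CPM reached into the lactate range. Slc16a3, the lactate exporter MCT4, rose by 0.51 ± 0.13 (adjusted p = 0.0327), with means of 198 ± 39.7 and 338 ± 39.2 CPM (SD, n = 5) in MHC-IIlo. In MHC-IIhi the means of Slc16a3 were 610.1 ± 173 and 728 ± 136 CPM, and leaving out any of 10 single libraries ended the call. Emb, the membrane partner embigin of these transporters, rose by 0.40 ± 0.10, and Pdk1, the kinase that shuts pyruvate dehydrogenase, by 0.49 ± 0.13; both calls were among those lost in most fits that left out 1 library, Emb in 15 and Pdk1 in 14 of 20. Without library 5 the adjusted p of Pdk1 was 0.0536. Slc16a1, the transporter MCT1, had an estimate of 0.02 ± 0.13 (adjusted p = 0.957), and Ldhb, the B chain of lactate dehydrogenase, 0.12 ± 0.40 (0.913) at 0.206 to 2.78 CPM, and the sign of both changed between analyses. Gpr132, a G protein-coupled receptor reported to sense lactate, was at -0.12 ± 0.15 (0.7396). The lactate receptor gene Hcar1 and the carrier Slc5a12 had no reads in the 20 libraries.

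Of the other metabolic lists, nuclear genes of oxidative phosphorylation had no call in 44 tested (edgeR; 3 with an unadjusted p under 0.05, all upward; median 0.019), and the TCA cycle none in 24 (2 with an unadjusted p under 0.05; median -0.016). Fatty acid oxidation had none in 20, cholesterol synthesis and uptake none in 24, with 4 and 6 genes at an unadjusted p under 0.05. Fatty acid synthesis had 1 in 23, the acyl-CoA ligase Acsl4 at 0.23 ± 0.06, whose call ended in 17 of the 20 fits without 1 library (adjusted p = 0.06004 without library 5). The lipid handling list had 1 lowered in 27, Pparg, against 1.26% of all genes. Mitochondrially encoded genes had 3 raised of 9 tested, with a median of 0.44 and all 9 estimates positive: mt-Nd1 at 0.53 ± 0.14, the ribosomal mt-Rnr2 at 0.88 ± 0.22 and mt-Nd6 at 1.02 ± 0.26. Over all genes, 2.05% were raised and 51.1% had a positive estimate. The share of reads on mitochondrial genes was 0.444% to 0.562% without lactate and 0.586% to 0.797% with it in MHC-IIhi, and 0.209% to 0.338% and 0.280% to 0.623% in MHC-IIlo. Each of the 3 calls was lost without any of 10 or 11 single libraries, library 5 among them for mt-Nd6 (adjusted p = 0.0543). A further 6 mitochondrial genes were listed at 0 in all 20 libraries, and mt-Nd6 lies on the other strand from its neighbours with the strand setting of the counting not stated.

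**Figure D4:**
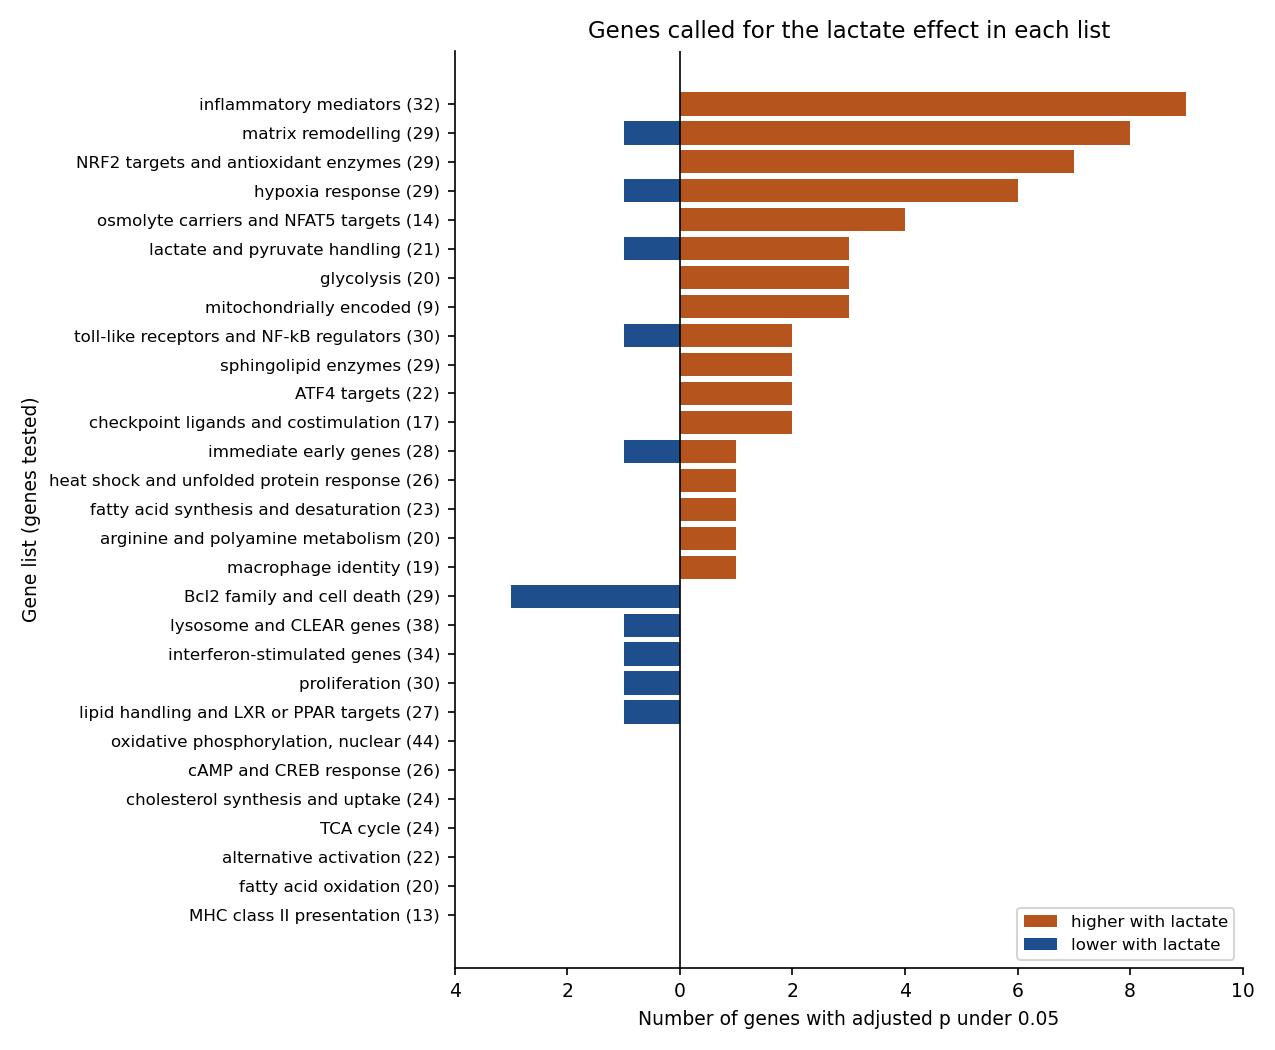
Number of genes called higher (right) or lower (left) with lactate in each of 29 pathway lists, by the edgeR test at an adjusted p under 0.05; the number of genes tested is in brackets. The list of inflammatory mediators had the most raised genes, 9 of 32, and the Bcl2 and cell death list the most lowered, 3 of 29. Over all genes, 2.05% were raised and 1.26% lowered.

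Lowered genes included surface proteins of monocytes and myeloid cells. Ccr2, the chemokine receptor by which monocytes leave the blood for tissue, was at 38.1, 48.8, 79.9, 97.2 and 14.2 CPM in MHC-IIhi without lactate and 38.9, 21.2, 20.6, 35.1 and 13.6 with it. In MHC-IIlo, Ccr2 was at 9.55, 17.8, 7.47, 10.2 and 9.73 CPM without lactate and 4.22, 3.88, 2.75, 0.876 and 2.88 with it, without overlap. Ccr2 fell by 1.5 on the log2 scale (SE 0.30, adjusted p = 0.00891), and without library 5 the change was -1.38 ± 0.29. Fresh cells held 1009 to 1339.6 CPM in MHC-IIhi and 290 CPM or more in MHC-IIlo, so all cultured libraries were far below them. Of 11 monocyte markers tested, Ccr2 was the 1 called lower and F13a1, a clotting factor subunit of macrophages, the 1 called higher (0.98 ± 0.23). Over all genes, 1.26% were lowered and 2.05% raised. The F13a1 call was lost without MHC-IIhi with lactate number 6, without MHC-IIhi without lactate number 6 and in all 3 fits on FPKM values. In bulk libraries fewer cells of a type and less RNA per cell cannot be told apart.

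Itga6, the laminin-binding integrin alpha 6, also fell. Its MHC-IIhi levels were 44.6, 71.97, 99.02, 87.3 and 49.1 CPM without lactate and 30.2, 42.7, 37.8, 51.6 and 32.8 with it, with an overlap, and its MHC-IIlo levels 96.95, 108, 107, 95.4 and 92.8 and 36.6, 46.4, 37.9, 57.4 and 49.7, with none. It fell by 0.99 (SE 0.14, adjusted p = 4.85e-04). Tgfbi went from 1990.5, 2084, 2179.7, 3272 and 1376 CPM to 1677, 1417, 1051, 1380.3 and 1087 in MHC-IIhi and from 626, 759, 346, 588 and 454 to 332, 269.6, 231, 49.5 and 226 in MHC-IIlo. Its change was -1.02 ± 0.24, and -0.89 ± 0.16 without library 5, the lowest of the 20. The inhibitory C-type lectin receptor Clec12a fell by 1.18 and Clec4a3, a member of a family of close copies, by 0.88, with library 5 lowest for both. Groups overlapped in MHC-IIhi and not in MHC-IIlo for both genes. Without library 5 the shared change of Clec12a was -1.05, with -1.70 in MHC-IIlo. Its difference between subsets then had an unadjusted p of 0.0087 (edgeR), and no gene passed that test after adjustment. Clec12a lost its call without MHC-IIhi without lactate number 6, MHC-IIhi with lactate number 6 or MHC-IIlo with lactate number 6, and Clec4a3 without any of 6 single libraries. Fam49a, a regulator of Rac1, fell by 1.24 (adjusted p = 7.84e-04) and Nxpe5 by 1.34. Tppp3, a microtubule-binding protein, fell by 0.81, with 17.3, 17.9, 17.8, 29.5 and 19.04 CPM against 9.7996, 9.89, 8.75, 10.2 and 8.12 in MHC-IIhi. In MHC-IIlo Tppp3 was at 16.5, 51.3, 34.5, 34.99 and 36.2 CPM without lactate and 24.5, 28.6, 17.1, 28.9 and 23.1 with it, which overlapped. Htr2b, a serotonin receptor, fell by 0.78, a call lost without any of 8 single libraries. Outside the naming rule and chosen after its values were seen, Plek, the protein kinase C substrate pleckstrin, was separated in both subsets, from 523, 556, 422, 451 and 455 to 319, 286, 397, 312 and 329 CPM in MHC-IIhi and from 553, 822, 653, 681 and 705 to 486, 543, 470.2, 345 and 490.2 in MHC-IIlo, and fell by 0.55.

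Pparg, the lipid-sensing nuclear receptor, was low throughout and fell further. Its values were 3.104, 2.09, 3.34, 4.08 and 1.82 CPM without lactate and 2.96, 1.202, 1.39, 0.385 and 0.527 with it in MHC-IIhi, and 11.3, 7.69, 6.87, 6.84 and 7.93 and 6.31, 3.299, 1.33, 0.959 and 2.05 in MHC-IIlo. The change was -1.33 ± 0.33 (adjusted p = 0.0295), lost without any of 5 single libraries. Egr1, an immediate early transcription factor, fell by 0.91 (SE 0.18, adjusted p = 0.00877) from 1.79 to 4.99 CPM without lactate to 1.02 to 2.75 CPM with it, over both subsets. Immediate early genes as a list had 1 raised, Ier3, and 1 lowered, Egr1, of 28 tested, against 2.05% and 1.26% of all genes.

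Cell death genes had 3 lowered and none raised of 29 tested (median -0.12), against 1.26% of all genes lowered, and 2 of the 3 are given here. Bcl2l11, the pro-apoptotic protein BIM, fell by 0.45 (adjusted p = 0.0175), and Casp1, the inflammasome caspase, had -0.44 ± 0.12 (adjusted p = 0.0454), lost without any of 15 single libraries, library 5 among them (adjusted p = 0.0616). Cdc20, an activator of the anaphase complex, was the 1 lowered gene of 30 in the proliferation list (-0.57 ± 0.15), and Sgsh, a lysosomal sulfatase, the 1 of 38 in the lysosome list (-0.44 ± 0.12); these calls ended in 10 and 14 of the 20 fits without 1 library, that of Sgsh without library 5 too (adjusted p = 0.0573), and that of Cdc20 also in all 3 fits on FPKM values.

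**Figure D5:**
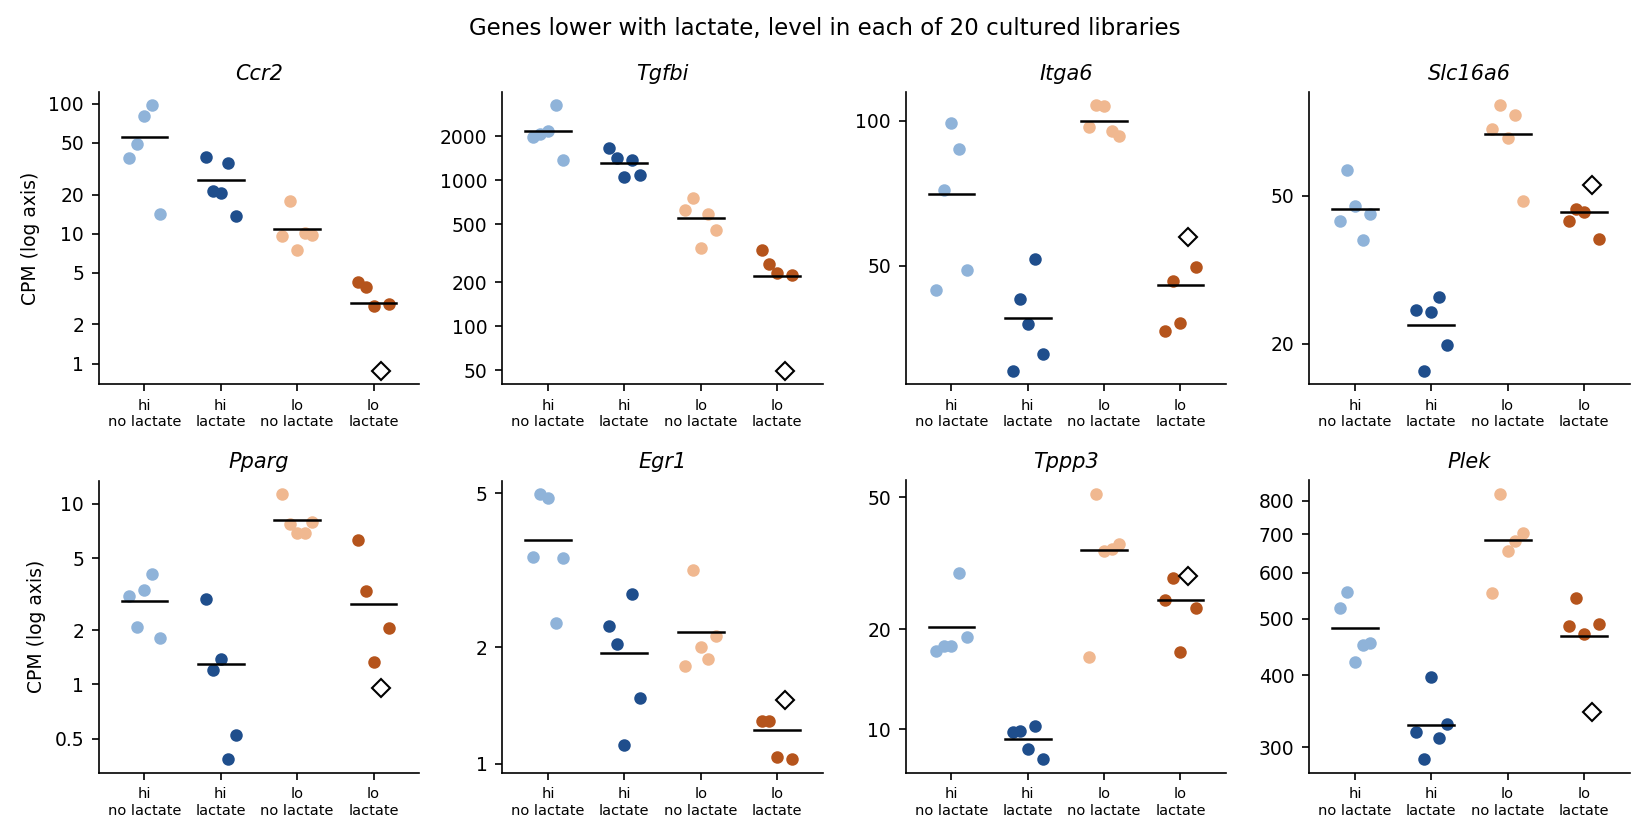
Level of 8 lowered genes in CPM (log axis) in each of the 20 cultured libraries; points are libraries, bars are group means, and the open diamond is MHC-IIlo with lactate number 5. Ccr2, Tgfbi, Itga6, Pparg and Egr1 separate in MHC-IIlo and overlap in MHC-IIhi, Slc16a6 and Tppp3 separate in MHC-IIhi and overlap in MHC-IIlo, and Plek separates in both.

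Estimates for interferon-stimulated genes lay below 0. Of 34 tested 1 was called, Gbp5, a guanylate-binding GTPase, at -0.68 ± 0.18 (adjusted p = 0.0418), against 1.26% of all genes lowered. All 34 estimates were negative, against 48.9% of all genes, with a median of -0.31. An unadjusted p under 0.05 downward was reached by 19 of them, as by 9.02% of all genes. The Gbp5 call was lost without any of 14 single libraries. Tgtp2, an interferon-induced GTPase with a near-identical copy, had -0.94 ± 0.25 (adjusted p = 0.0448). The Tgtp2 call was lost in 17 of the 20 fits without 1 library (highest adjusted p = 0.0969), that without library 5 among them (0.0525).

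MHC class II genes had no call in 13 tested (edgeR; 5 with an unadjusted p under 0.05, 4 of them downward). H2-Ab1 was at -0.51 ± 0.26 (adjusted p = 0.288) and H2-Aa at -1.17 ± 0.34 (0.0622). Alternative activation genes likewise had none in 22 (7 with an unadjusted p under 0.05, 2 up and 5 down). Arg1, the arginase that lactate is known to induce, was at 1745, 2092, 1825, 1196 and 1051 CPM without lactate and 1445, 2559, 1796, 2480.3 and 1787 with it in MHC-IIhi, and at 299.6, 486, 293, 372 and 150 and 628, 993, 561, 324 and 575 in MHC-IIlo. Its groups overlapped in both subsets, and the estimate of 0.65 ± 0.20 missed the threshold (adjusted p = 0.0842). Without library 5, in which Arg1 was 324 CPM, the estimate was 0.73 ± 0.19 with an adjusted p of 0.0338. Mrc1, the mannose receptor, was at -0.46 ± 0.16 (0.117). In the arginine and polyamine list Nos2 was the 1 call in 20, against 2.05% of all genes raised.

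Among checkpoint and costimulatory ligands 2 of 17 rose and none fell, against 2.05% raised and 1.26% lowered of all genes. The list's median was -0.11, and 3 of its 17 estimates were positive, against 51.1% of all genes. Tnfsf9, the 4-1BB ligand, rose by 0.89 ± 0.15 (adjusted p = 0.00248), from means of 22.4 ± 8.21 to 33.1 ± 7.87 CPM (SD, n = 5) in MHC-IIhi and from 7.52 ± 0.555 to 17.5 ± 3.302 in MHC-IIlo. Cd80, a ligand of CD28 and CTLA-4, rose by 0.50 ± 0.10 (adjusted p = 0.00592). ATF4 targets had 2 raised of 22, Slc7a11 and Ddit4. The heat shock and unfolded protein list had 1 of 26, Hspa1b, and the macrophage identity list 1 of 19, Cd14. The share over all genes beside these counts was the same 2.05%. The cAMP and CREB list had no call in 26 (7 with an unadjusted p under 0.05). Of the named genes in no list, Slco4a1, an organic anion carrier, rose by 1.56 ± 0.23 (adjusted p = 7.98e-04), with 14.4, 11.4, 18.5, 11.9 and 22.2 CPM in MHC-IIlo without lactate and 41.7, 39.7, 60.4, 90.8 and 57.4 with it. In MHC-IIhi the values of Slco4a1 were 26.5, 25.8, 15.3, 19.4 and 51.6 and 54.9, 61.5, 61.8, 35.8 and 112 CPM, which overlapped. Tmem119, a membrane protein best known from microglia, rose by 1.15 ± 0.27, with the call lost without MHC-IIhi with lactate number 6.

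The part of marker genes of other cells in these results was not tested. Beside the counts below, 2.05% of all genes were raised and 1.26% lowered. Dendritic cell markers had 1 lowered of 8, Kmo, at 0 in 4 of 5 MHC-IIlo lactate libraries and under 2 CPM elsewhere. The Kmo call (adjusted p = 0.0459) was lost in 15 of the 20 fits without 1 library (adjusted p = 0.0664 without library 5) and in 4 other settings, no filter and limma voom among them. The dendritic cell markers' summed level was 213 to 409 CPM in MHC-IIhi without lactate and 205 to 459 with it, and 76.3 to 136 and 51.7 to 121 CPM in MHC-IIlo, with Siglech at 0 in all 20. Monocyte sums were 330.01 to 775 and 536 to 879 CPM in MHC-IIhi, and 140.2 to 235 and 159 to 286 CPM in MHC-IIlo. Neutrophil markers had 1 raised of 4 tested, Mmp8, which made up most of a sum of 756 to 1105 CPM without and 1626 to 2343 CPM with lactate in MHC-IIhi and of 783 to 1072 and 469 to 1696 CPM in MHC-IIlo. The neutrophil gene S100a8 was at 7.71 to 23.3 CPM, with an estimate of 0.46 (edgeR, adjusted p = 0.0542). Of the 4 neutrophil markers tested, 3 had an unadjusted p under 0.05, 2 up and 1 down, and without library 5 the list held 2 raised genes. Of the 13 listed, 9 had no reads in 10 or more libraries. T and NK cell markers had no call in 5 (edgeR; 4 with an unadjusted p under 0.05, all downward) and summed to 5.73 to 16.8 and 4.06 to 8.995 CPM in MHC-IIhi and to 1.80 to 5.76 and 0.788 to 3.55 CPM in MHC-IIlo. Fibroblast markers had 1 raised of 10, Pdgfrb at 1.34 ± 0.33 (lost without MHC-IIhi with lactate 5, MHC-IIhi without lactate 6 or MHC-IIlo without lactate 3), with sums of 47.1 to 127 and 45.96 to 113 CPM in MHC-IIhi and 44.9 to 80.05 and 44.1 to 77.6 CPM in MHC-IIlo. B cell, endothelial, epithelial or tumour, and erythroid or platelet lists had no call in 4, 4, 4 and 2 genes tested, with 1, 2, 1 and 0 at an unadjusted p under 0.05, and Emcn and Krt5 were at 0 in all 20 libraries. Endothelial markers summed to 358 to 651 and 304 to 449.5 CPM in MHC-IIhi and to 314 to 414 and 149 to 357 CPM in MHC-IIlo, most of it Kdr, a receptor for VEGF-A at 71.1 to 588 CPM. Erythroid or platelet markers summed to 315 to 539 and 328 to 684 CPM in MHC-IIhi and to 897 to 1081 and 405 to 1367 CPM in MHC-IIlo, most of it Pf4, a chemokine of platelets and macrophages. B cell markers summed to at most 56.5 CPM and epithelial or tumour markers to at most 85.4 CPM.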

How the data were processed

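Bulk RNA was sequenced from tumour macrophages. The submitters' processing notes name Trimmomatic, STAR, featureCounts and the build GRCm38; versions, annotation and strand setting are not given in the sources used here. The authors deposited raw read counts for 46603 genes and FPKM values for 13778. Per the file headers, columns carry numbers other than the labels' replicate numbers, so each was placed in its group only; 0 columns went unused. Counts of the 20 cultured libraries (16965012 to 31481548 reads each) were filtered with filterByExpr and normalised with TMM, and edgeR 4.0.16 (R 4.3.3) gave 2-sided quasi-likelihood F tests on 4 group means with no block, with Benjamini-Hochberg adjustment and a threshold of 0.05. Alternatives used limma 3.58.1 (also on log2(FPKM + 1) and log2(FPKM + 0.1)), DESeq2 1.42.0, no filter, RLE size factors, all 30 libraries and each library left out. The test was checked on simulated counts. Members and the 38 gene lists were chosen with earlier results of these data known. Named genes were the 12 largest rises and 12 largest falls among calls with a mean log2 CPM of at least 4 and 1 sign in both subsets (no unnamed models, mitochondrial, ribosomal or antigen receptor genes), the 2 smallest p-values of each list with a call, and 16 genes given throughout. Some listed genes are counted but not reported by name here.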

Additional observations from a re-analysis of the deposited data

Results flagged for a closer look

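In groups of 5 libraries, 31 of 288 sets of values had 1 library far from the other 4, where a rate of 1 in 20 would give 14.4. That rate assumes independent, normally spread values. These sets share their libraries and include genes named for large changes in them, so the excess is a description and no test. MHC-IIlo with lactate number 5 gave 13 of them. It was the highest of its group for Il1b (129 CPM), Cxcl2 (610.4 CPM), Cxcl3 (857 CPM), Cxcl1 (292 CPM), Serpinb2 (445 CPM), Cd14 (471 CPM), Slc7a11 (229.7 CPM), Ddit4 (28.1 CPM), Cdc20 (28.7 CPM) and mt-Nd6 (1.71 CPM), and the lowest for Clec4a3 (30.2 CPM). Its TMM factor of 1.28 and the 16.2% of reads in its top 50 genes stood apart in the same way. Whether that library differs in its cells, its culture or its preparation was not tested.

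MHC-IIhi with lactate number 1 was the highest of its group for Tlr9 (92.4 CPM) and Kmo (0.841 CPM) and the lowest for F13a1 (18.7 CPM) and Slc16a1 (41.2 CPM). MHC-IIlo without lactate number 3 was the highest for Ccr2 (17.8 CPM), Aldoc (2.03 CPM), Egr1 (3.17 CPM) and H2-Ab1 (72.1 CPM). In MHC-IIhi with lactate, number 6 was high for Il1b (726 CPM) and number 5 low for Hspa1b (6.43 CPM). In MHC-IIlo with lactate, number 1 was high for Fn1 (108 CPM), number 3 for Kmo (0.0680 CPM) and Smpdl3b (13.8 CPM), and number 4 for mt-Rnr2 (1281 CPM). Without lactate, MHC-IIhi number 5 was high for Akr1b3 (45.1 CPM), MHC-IIhi number 6 for Tppp3 (29.5 CPM), MHC-IIlo number 1 for Pparg (11.3 CPM) and MHC-IIlo number 6 for Slc6a6 (1216 CPM).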

How the results depend on the processing

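The count of 450 genes for the shared effect was 451 with RLE size factors, 320 with no filter on low counts, 407 in an additive model, and 551, 529 and 598 in limma fits on FPKM. It was 878 with DESeq2, 1367 with limma voom and 776 in 1 fit of all 30 libraries. In MHC-IIhi the count of 34 became 122, 53 and 59 with DESeq2, all 30 libraries and unfiltered FPKM. In MHC-IIlo the count of 202 became 689, 1502 and 531 with DESeq2, voom and all 30 libraries. For the difference between subsets the count of 0 became 2, 2 and 1. A replicate block on the header number gave 1874 shared calls (879 higher, 995 lower; 448 of the 450 among them), 81 in MHC-IIhi, 1111 in MHC-IIlo and 2 for the difference; the same block without library 5 (MHC-IIlo with lactate number 5) gave 1719, 255, 631 and 2. The labels do not say that a header number marks a shared mouse or day, and MHC-IIhi without lactate number 7 has no partner and adds nothing under the block. Deviations of same-numbered libraries correlated at -0.600 to 0.707 over 4 pairs in MHC-IIhi (2 of 4 best with their own number) and 0.0407 to 0.563 over 5 pairs in MHC-IIlo (4 of 5), and between subsets at -0.0738 to 0.5275 over 4 pairs without lactate (3 over 0.1, 2 of 4 best with their own number) and -0.207 to 0.666 over 5 pairs with it (4 over 0.1, 4 of 5 best with their own number), so not every pair was over 0.1 and the pairing was not used. Leaving out 1 library in turn gave 259 to 803 shared calls, 8 to 54 in MHC-IIhi, 53 to 758 in MHC-IIlo and 0 to 8 for the difference. The shared count left the range of 300 to 675 without MHC-IIhi without lactate number 6 (259), MHC-IIlo without lactate number 3 (290) and number 5 (293), and MHC-IIhi with lactate number 6 (259) and number 1 (803). The cause was not tested. All 3 fits on FPKM values lost the calls of Il1b, Csf3, Ptges, Nos2, Vegfa, Ddit4, Mmp12, Plaur, F13a1 and Cdc20, and those with a pseudocount of 1 that of Slc7a11. The additive model lost those of Il1b, Csf3, Ptges, Cxcl1, Lif, Clec12a, Ddit4, Plaur, Sgsh and Kmo. Of 57 named genes with a call, 34 kept it in all 31 alternatives that could be fitted for them and none changed sign. Sign changes were limited to genes with no call: Slc16a1 was -8.86e-04 on FPKM + 0.1 and -0.0554 to 0.0859 over the fits that left out 1 library; Ldhb was -0.27 with the block, -0.16 with the block and without library 5, and -0.064 to 0.284 over those fits; Slc6a6 was 0.0286 with voom and -0.0714 to 0.0563 over them. In data simulated on these 13593 genes the shared test recovered 47.8% of 1.5-fold, 80.6% of 2-fold and 93.9% of 4-fold changes, so small changes may be missed. Recovery for genes at a few reads was not measured separately. The simulated effects were equal in both subsets, with independent draws and no outlying library, so recovery in the real data may differ.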

Other observations

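The genes named here are in no list and outside the naming rule and were chosen after their values were seen, because their groups did not overlap in either subset. Stfa3, a stefin inhibitor of cysteine proteases with close copies in its family, was at 0.741, 0.57003, 0.629, 0.634 and 1.03 CPM without lactate and 3.66, 3.97, 2.29, 2.47 and 1.16 with it in MHC-IIhi, and at 0.3103, 0.497, 0.4904, 0.249 and 0.1503 and 2.22, 0.748, 1.56, 1.67 and 1.301 CPM in MHC-IIlo, a rise of 2.01 ± 0.26 on the log2 scale. Rab15, a GTPase of endosome recycling, was at 2.08, 1.66, 1.02, 1.54 and 2.95 and 2.998, 9.98, 4.16, 5.88 and 8.06 CPM in MHC-IIhi and at 0.828, 0.497, 1.21, 0.912 and 1.95 and 3.202, 4.05, 7.44, 10.6 and 7.096 CPM in MHC-IIlo, a rise of 2.16 ± 0.28. Sort1, the sorting receptor sortilin, rose by 1.14 ± 0.17, from means of 8.86 ± 3.06 to 19.2 ± 4.33 CPM (SD, n = 5) in MHC-IIhi and from 2.79 ± 0.678 to 6.19 ± 1.46 in MHC-IIlo. Abcc1, an exporter of glutathione conjugates and leukotrienes, rose by 0.58 ± 0.09, from 292 ± 50.4 to 466 ± 45.6 CPM in MHC-IIhi and from 189 ± 26.9 to 265 ± 42.4 in MHC-IIlo. Clec4e, the receptor Mincle for microbial glycolipids, rose by 0.65 ± 0.11 and Nlrc4, an inflammasome sensor, by 0.55 ± 0.10. Jag1, a Notch ligand, rose by 0.55 ± 0.10.

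Lowered genes of the same kind were fewer. Flt1, a receptor for VEGF-A, was at 3.598, 4.18, 4.29, 4.85 and 2.74 CPM without lactate and 2.05, 1.57, 2.03, 2.198 and 1.42 with it in MHC-IIhi, and at 3.9996, 4.32, 3.17, 3.73 and 3.42 and 2.49, 1.26, 1.85, 1.84 and 1.06 CPM in MHC-IIlo, a fall by 1.11. Lrrc4, a leucine-rich repeat membrane protein, was at 0.282, 0.713, 1.101, 1.31 and 0.377 and 0.1097, 0, 0.0533, 0.1099 and 0 CPM in MHC-IIhi and at 4.17, 2.33, 1.06, 2.28 and 2.07 and 0.889, 0.238, 0.237, 0 and 0.276 CPM in MHC-IIlo, with a fitted change of -3.23 ± 0.51 that rests on few reads. Hmgn2, a nucleosome-binding protein with processed copies in the genome, fell by 0.70. Each of these 10 genes kept its call in the 20 fits that left out 1 library. So did all 40 called genes separated in both subsets, so this adds nothing to the separation by which the genes were chosen.

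The called genes were slightly longer than all genes tested, with a median of 4012 bases for those raised and 3753 for those lowered against 3676 over all, and their median GC content was 50.49% and 48.15% against 49.51%. These are values only.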
